A study of Homo sapiens with 27 samples.

Results

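The mRNA of 10 genes that drive or hold back the passage from G1 into S phase of the cell cycle was followed in U2OS cells, a human osteosarcoma line. They were chosen by name, as the D-type cyclins CCND1, CCND2 and CCND3, the E-type cyclins CCNE1 and CCNE2, the cyclin-dependent kinases CDK4, CDK6 and CDK2, and the pocket proteins RB1 and RBL2, from the 55882 gene symbols of the deposited count files. These 10 genes and the lists of other genes used below were chosen with earlier results of these data known. All 10 passed the filter on low counts in every comparison. Poly(A) RNA was sequenced from 3 stable lines, which per the study's methods were transduced and selected with puromycin. The control libraries are titled WT, and the labels describe those cells as holding a blank pLKO.1 vector. MMP2sh1 and MMP2sh2 carry the same vector with 2 different shRNAs (short hairpin RNAs that direct the degradation of an mRNA) against MMP2, the gene of a matrix metalloproteinase that the study examined as a nuclear protease of histone H3. Each line was collected at 3 days of culture, day −2 (proliferating, subconfluent), day 0 (confluent) and day +2 (overconfluent), giving 9 groups of 3 libraries, 27 in all. Each line is a single selected population, so that an effect of the hairpin and a property of that population cannot be told apart.

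In dividing cells, D-type cyclins bind CDK4 and CDK6 and start the phosphorylation of the pocket proteins, which otherwise hold E2F transcription factors in check. E-type cyclins with CDK2 complete that phosphorylation, and freed E2F factors switch on genes for DNA synthesis. CCND1 and CCND2 transcription is known to follow growth factor and adhesion signals, CCNE1 is itself an E2F target, and RBL2 (p130) is the pocket protein that is typical of resting cells. Cells that reach high density commonly slow their division. The days of culture here sample cells before, at and after confluence.

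Total counts on genes were between 33580100 and 59374300 per library, with a median of 40075200. MMP2, the targeted gene, was at 222.0, 226.3 and 248.4 CPM (reads on the gene as a part of each library's total, scaled with TMM factors over all libraries) in the 3 control libraries of day −2, at 34.0, 39.5 and 46.8 in MMP2sh1 and at 135.7, 139.9 and 155.4 in MMP2sh2. It stayed below every control library of the same day in all libraries of both shRNA lines, at 17.3% to 19.8% of control in MMP2sh1 and at 48.1% to 61.7% in MMP2sh2. Markers of mesenchymal and bone cells summed to 4183 to 7955 CPM over the group means, with COL1A2 at under 1 CPM, whereas 5 blood cell markers summed to 0.306 to 1.37 CPM, 3 endothelial markers to 2.65 to 4.99 CPM and 5 epithelial markers to 33.7 to 64.7 CPM. In bulk RNA, fewer cells in a phase of the cycle and less RNA per cell cannot be told apart.

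Positions are given on GRCh37, the build that the authors call hg19. CCND1 is at chr11:69455924-69469242 on the plus strand, CCND2 at chr12:4378937-4414519 on the plus strand, CCND3 at chr6:41902672-42018095 on the minus strand, and CCNE1 at chr19:30302898-30315219 on the plus strand. CCNE2 is at chr8:95891998-95908906 on the minus strand. CDK2 and CDK4 are both on chromosome 12, at chr12:56360565-56366573 on the plus strand and at chr12:58141510-58149796 on the minus strand, and CDK6 is at chr7:92234235-92465887 on the minus strand. RB1 is at chr13:48877880-49173572 and RBL2 at chr16:53467889-53525560, both on the plus strand. The authors' counting (HTSeq in union mode, strand ignored) sets aside reads on exons that 2 genes share, but the gene annotation they counted on is not given in the sources used here. In GENCODE, used here for positions and lengths, exons of another gene cover 57.8% of the bases of the canonical CDK4 transcript (TSPAN31) and 56.9% of CCNE2 (INTS8). They cover 12.5% of RBL2 (AKTIP), 11.7% of CCND1 (LTO1), 3.97% of CDK2 (PMEL) and 2.49% of CCND2 (CCND2-AS1), and none of CCND3, CCNE1, CDK6 and RB1. The levels per kilobase of CDK4 and CCNE2 therefore depend on this annotation, whereas a comparison of the same gene between groups does not use a length.

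Levels of different genes were compared per kilobase of transcript, after the bases shared with other genes in GENCODE were taken off the length. In subconfluent control cells CDK4 was the most abundant, at 254 ± 9.46 CPM per kb (SD, n = 3), and CCND1 followed at 77.0 ± 1.33. CCNE1 was at 44.3 ± 1.17 CPM per kb and CDK2 at 32.5 ± 0.264. CCND3 and CCND2, at 26.3 ± 1.87 and 26.0 ± 0.265, could not be ordered because their libraries overlapped. CDK6 (16.4 ± 0.590), RBL2 (14.8 ± 0.875) and RB1 (12.4 ± 0.651) came next, and CCNE2 was lowest at 6.72 ± 0.632 CPM per kb. Apart from CCND3 and CCND2, the 3 libraries of each gene lay wholly above those of the next gene. On the whole canonical length CDK4 was at 107 ± 3.99 and CCNE2 at 2.90 ± 0.272 CPM per kb, still the highest and the lowest of the 10, and RBL2 (12.9 ± 0.765) and RB1 (12.4 ± 0.651) overlapped. In overconfluent control cells CCND2, at 29.2 ± 0.563 CPM per kb, had moved above CDK2 (28.6 ± 1.14) with overlapping libraries, and CDK6, at 11.3 ± 0.934, lay below RBL2 (21.0 ± 1.43) and RB1 (13.4 ± 0.336).

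Of the 10 genes, 6 had an entry in a RefSeq table of promoter windows (GRCh38.p14, 250 bases before to 50 after a start), and CCND1, CCND2, CCNE2 and CDK2 had none. Placed on GRCh37 by exact match, the windows of CCNE1 and CDK4 were those of the start of the canonical transcript used for the levels. Those of CCND3, CDK6, RB1 and RBL2 belonged to starts 1148 to 172699 bases further downstream and are not shown. CCNE1 and CDK4, an E-type cyclin and a partner of the D-type cyclins, are printed because only their windows lay at the canonical start. Both genes also fell from day −2 to day +2 in all 3 lines, which was not used to choose them. Capitals mark GC boxes (GGGCGG, on either strand), the letters that Sp1-like factors bind.
CCNE1 (GRCh37 chr19:30302648-30302947, plus strand): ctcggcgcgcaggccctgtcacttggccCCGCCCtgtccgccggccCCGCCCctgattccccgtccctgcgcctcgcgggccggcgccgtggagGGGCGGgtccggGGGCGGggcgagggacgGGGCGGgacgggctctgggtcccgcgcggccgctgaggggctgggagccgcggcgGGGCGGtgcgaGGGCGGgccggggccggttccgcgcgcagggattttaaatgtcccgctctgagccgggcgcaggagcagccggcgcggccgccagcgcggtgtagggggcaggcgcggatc
CDK4 (GRCh37 chr12:58146044-58146343, minus strand): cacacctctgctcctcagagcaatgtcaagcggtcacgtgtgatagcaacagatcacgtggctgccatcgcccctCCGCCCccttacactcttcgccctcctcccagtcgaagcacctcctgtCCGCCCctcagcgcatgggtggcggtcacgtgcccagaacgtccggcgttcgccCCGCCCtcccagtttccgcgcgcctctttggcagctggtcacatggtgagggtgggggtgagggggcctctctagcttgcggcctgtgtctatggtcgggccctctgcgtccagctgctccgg
The CCNE1 window held 7 GC boxes with 81.0% G and C, and the CDK4 window held 3 with 66.0% G and C. A GC box was in 45.0% of the 35116 promoter windows of the table. The E2F letters TTTGGCGC or TTTCGCGC, on either strand, were in 1.15% of those windows and in neither of these. Only these exact letters were searched, so that an E2F site with other letters would not have been found.

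**Figure D1:**
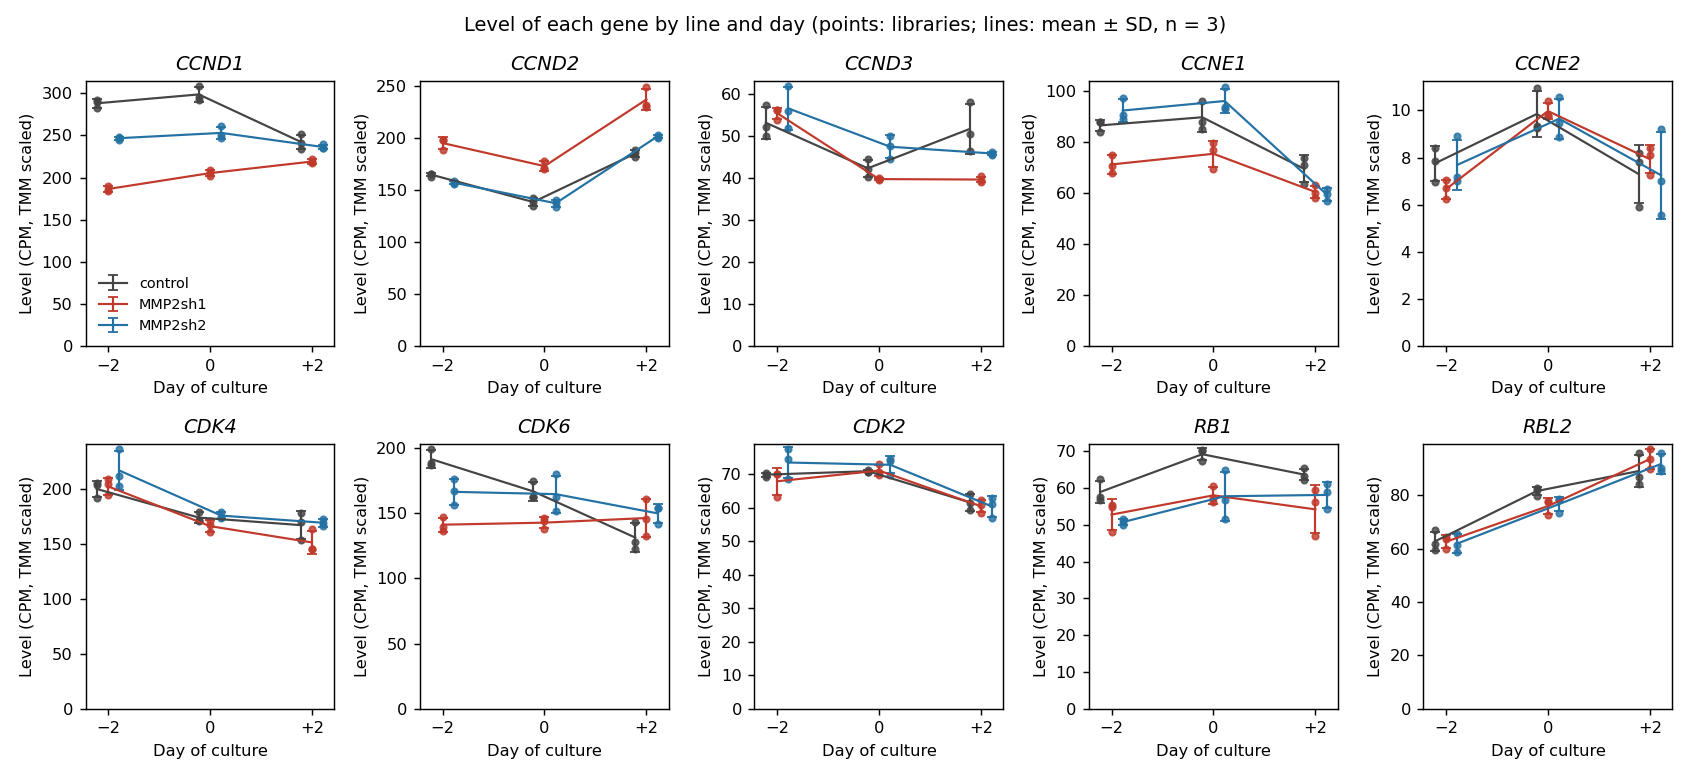
Level of each of the 10 genes in CPM (TMM scaled, linear axis from 0) against day of culture, for control (grey), MMP2sh1 (red) and MMP2sh2 (blue). Points are the 27 libraries and lines join the means of 3 libraries with their SD. CCND1 in MMP2sh1 lies below the control at all 3 days while CCND2 lies above it, and RBL2 rises in the 3 lines together.

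Relative to control, MMP2sh1 cells held less CCND1, CDK6 and CCNE1 mRNA and more CCND2 mRNA before and at confluence, whereas CDK4, CDK2, RBL2 and CCNE2 passed the test in neither shRNA line on any day. A gene was called at an adjusted p under 0.05 in edgeR's quasi-likelihood test, adjusted over all genes tested. At day −2, 4 of the 10 genes were called in MMP2sh1, while of 18878 genes tested, 11.6% were called, 6.14% lower and 5.42% higher. At day 0, 5 of 10 were called, while of 19536 genes tested, 16.8% were called, 8.58% lower and 8.26% higher. At day +2, 4 of 10 were called, while of 19294 genes tested, 14.8% were called, 7.11% lower and 7.68% higher. In MMP2sh2, 3 of 10 were called at day −2, while of 18845 genes tested, 11.0% were called, 6.33% lower and 4.71% higher. At day 0, 2 of 10 were called, while of 19063 genes tested, 12.9% were called, 5.81% lower and 7.07% higher. At day +2, 2 of 10 were called, while of 19339 genes tested, 6.32% were called, 3.43% lower and 2.89% higher. The 2 shRNA lines share their control libraries, so that their changes are not independent of each other.

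CCND1, the D-type cyclin with the highest level, was lower in MMP2sh1. At day −2 it was at 292, 283 and 289.7 CPM in the control libraries, at 190.0, 186 and 184 in MMP2sh1 and at 247, 245 and 249 in MMP2sh2. The 3 lines did not overlap, with MMP2sh2 between the other two. At day 0 the values were 308, 293 and 295 in control, 201, 206 and 209 in MMP2sh1 and 251, 261 and 248 in MMP2sh2, again without overlap. At day +2 they had drawn together, at 252, 241 and 234 in control, 218, 222 and 217 in MMP2sh1 and 235, 239 and 235 in MMP2sh2, and the MMP2sh2 libraries overlapped those of the control. The log2 fold change in MMP2sh1 was −0.63 (SE 0.05, adjusted p = 4.85e-09) in subconfluent cells, or 64.7% of control, and −0.54 (SE 0.04, adjusted p = 2.80e-12) at day 0. At day +2 it was −0.15 (SE 0.05, adjusted p = 0.0503), which missed the threshold, and 5 of the alternative fits placed it under the threshold (DESeq2 on the 6 or the 27 libraries, edgeR on the 27, median-of-ratios scaling and the stricter filter). In MMP2sh2 the 3 days gave −0.23 (SE 0.05, adjusted p = 0.00422), −0.25 (SE 0.04, adjusted p = 3.45e-05) and −0.04 (SE 0.05, adjusted p = 0.778). Without control replicate 1 the MMP2sh2 value of CCND1 at day −2 had an adjusted p of 0.0507.

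CCND2, which binds the same kinases as CCND1, moved the other way in MMP2sh1. At day −2 it was at 166, 163 and 166 CPM in control and 189, 198 and 198 in MMP2sh1, at day 0 at 142, 138 and 135 and 169.9, 178 and 171, and at day +2 at 189, 181 and 185 and 232, 230.0 and 249. Every MMP2sh1 library lay above every control library of its day. The log2 fold change of CCND2 was 0.24 (SE 0.05, adjusted p = 0.00255), 0.32 (SE 0.04, adjusted p = 1.60e-06) and 0.35 (SE 0.05, adjusted p = 1.28e-05) at days −2, 0 and +2. In MMP2sh2 it was at 156, 157 and 159 CPM, 138, 140.2 and 134 CPM and 200.1, 203 and 201 CPM on the 3 days, with log2 fold changes of −0.07 (adjusted p = 0.414), −0.03 (adjusted p = 0.78) and 0.12 (adjusted p = 0.182).

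CCND3, the remaining D-type cyclin, passed the test in 1 of the 6 comparisons with control, that of overconfluent MMP2sh1 cells. There it was at 39.2, 40.4 and 39.5 CPM against 46.6, 50.5 and 58.2 in control, with no overlap and with a wide spread in control. The log2 fold change was −0.39 (SE 0.07, adjusted p = 3.88e-04). At days −2 and 0 it was 0.06 (adjusted p = 0.644) and −0.09 (adjusted p = 0.363) in MMP2sh1. In MMP2sh2 it was 0.09 (adjusted p = 0.513), 0.15 (adjusted p = 0.133) and −0.17 (adjusted p = 0.167) on the 3 days.

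Per kilobase, the 3 D-type cyclins together were at 129 ± 0.315 CPM per kb in control and 108 ± 0.433 in MMP2sh1 at day −2 (SD, n = 3), and at 123 ± 1.95 and 102 ± 1.43 at day 0. At day +2 the sums were 119.6 ± 1.37 and 116 ± 1.24. The share of CCND1 in the sum was 59.6% ± 1.16 in control and 46.1% ± 0.746 in MMP2sh1 at day −2, while that of CCND2 was 20.1% ± 0.244 and 28.5% ± 0.894. At day +2 the share of CCND2 was 24.4% ± 0.318 in control and 32.4% ± 1.16 in MMP2sh1. In MMP2sh2 the share of CCND1 was 55.6% ± 1.18 at day −2 and 53.7% ± 0.263 at day +2. On the whole canonical length the share of CCND1 at day −2 was 56.8% ± 1.19 in control and 43.4% ± 0.733 in MMP2sh1. On both lengths CCND1 was the largest of the 3 in every group, and its share was lowest in subconfluent MMP2sh1 cells.

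**Figure D2:**
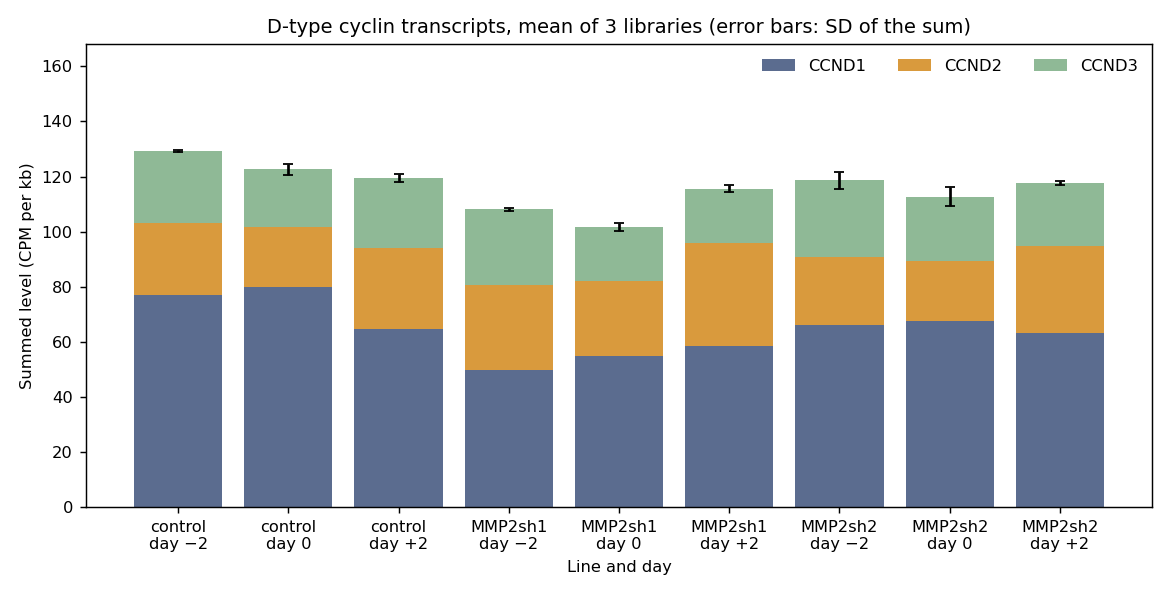
Summed level of the D-type cyclins in CPM per kb (linear axis from 0) in each line and day, split into CCND1 (blue), CCND2 (orange) and CCND3 (green), as means of 3 libraries with the SD of the sum. The bars of MMP2sh1 at days −2 and 0 are the lowest, with a smaller CCND1 part and a larger CCND2 part than in control.

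Of the E-type cyclins, which activate CDK2, CCNE1 was lower in MMP2sh1 at all 3 days. It was at 88.0, 83.9 and 87.7 CPM in control and 70.7, 67.9 and 75.0 in MMP2sh1 at day −2, at 87.8, 85.1 and 96.2 and 79.7, 69.6 and 76.9 at day 0, and at 63.6, 70.9 and 73.9 and 63.0, 58.2 and 60.1 at day +2. All MMP2sh1 libraries lay below all control libraries, by the narrowest margin at day +2. The log2 fold change was −0.28 (SE 0.06, adjusted p = 0.00258), −0.25 (SE 0.06, adjusted p = 0.0012) and −0.20 (SE 0.07, adjusted p = 0.034). In MMP2sh2, CCNE1 was at 88.9, 90.7 and 97.4 CPM at day −2 and 93.6, 93.0 and 102 CPM at day 0, with positive log2 fold changes of 0.09 (adjusted p = 0.366) and 0.09 (adjusted p = 0.349), and at 56.9, 59.8 and 61.7 CPM at day +2, with a log2 fold change of −0.23 (SE 0.07, adjusted p = 0.0268). The calls of CCNE1 at day +2 were lost without control replicate 2 or 3 in both lines (adjusted p = 0.137 and 0.208 in MMP2sh1, and 0.139 and 0.228 in MMP2sh2), without MMP2sh1 replicate 2 or 3 (0.154 and 0.0805) and without MMP2sh2 replicate 1 or 2 (0.200 and 0.0799).

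CCNE2, with 208 to 628 counted reads per library, had the widest errors of the 10 genes. Its group means were 7.75, 9.85 and 7.30 CPM in control on the 3 days, 6.66, 9.97 and 7.93 in MMP2sh1, and 7.68, 9.65 and 7.24 in MMP2sh2. The log2 fold changes of CCNE2 from control were between −0.21 and 0.11, with SEs of 0.11 to 0.15 and adjusted p of 0.368 to 0.985.

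CDK6 was the kinase that passed the test against control. At day −2 it was at 188, 187 and 199 CPM in control, 147, 139.5 and 137 in MMP2sh1 and 167, 176 and 156 in MMP2sh2, both lines wholly below control. At day 0 it was at 163, 175 and 163 in control, 144, 146 and 138 in MMP2sh1 and 162, 152 and 179.9 in MMP2sh2, and MMP2sh1 alone did not overlap the control. At day +2 it was at 144, 128 and 123 in control, 132, 146 and 161 in MMP2sh1 and 154, 142 and 154 in MMP2sh2, and both lines overlapped the control. In MMP2sh1 the log2 fold change was −0.44 (SE 0.05, adjusted p = 4.72e-06), −0.23 (SE 0.04, adjusted p = 3.58e-04) and 0.15 (SE 0.07, adjusted p = 0.133) on the 3 days, the first being 73.8% of control. In MMP2sh2 it was −0.21 (SE 0.06, adjusted p = 0.0185), −0.03 (SE 0.05, adjusted p = 0.761) and 0.19 (SE 0.06, adjusted p = 0.0443). The MMP2sh2 call of CDK6 at day −2 was lost without control replicate 1 or 3 or MMP2sh2 replicate 1 (adjusted p = 0.0735, 0.0978 and 0.0502), and that at day +2 without control replicate 2 or 3 or MMP2sh2 replicate 1 or 3 (0.244, 0.321, 0.227 and 0.0713). The MMP2sh1 value at day +2 passed the threshold without control replicate 1 (0.22, adjusted p = 0.0324) or MMP2sh1 replicate 1 (0.22, adjusted p = 0.0103).

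CDK4, the other partner of the D-type cyclins, was at 200.2 ± 7.45 CPM in control, 203 ± 7.54 in MMP2sh1 and 217 ± 17.5 in MMP2sh2 at day −2 (SD, n = 3). Its log2 fold changes from control were between −0.15 in MMP2sh1 at day +2 (adjusted p = 0.112) and 0.11 in MMP2sh2 at day −2 (adjusted p = 0.228). The former passed the threshold without control replicate 1 (−0.20, adjusted p = 0.0324) or MMP2sh1 replicate 1 (−0.20, adjusted p = 0.0136). CDK2, the partner of the E-type cyclins, was at 69.8 ± 0.569 CPM in control, 67.9 ± 3.95 in MMP2sh1 and 73.5 ± 4.56 in MMP2sh2 at day −2. The log2 fold changes of CDK2 were between −0.04 and 0.07, with SEs of 0.05 to 0.06 and adjusted p of 0.548 to 0.994.

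RB1, the retinoblastoma protein gene, had a lower mean than control in both lines on every day. At day 0 it was at 70.1, 70.3 and 67.3 CPM in control, 60.6, 56.3 and 57.3 in MMP2sh1 and 56.9, 51.7 and 64.9 in MMP2sh2, all libraries of both lines below the control. At day −2 the values were 56.8, 57.6 and 62.5 in control, 55.0, 55.5 and 48.0 in MMP2sh1 and 50.8, 51.7 and 49.9 in MMP2sh2, and at day +2 63.4, 65.4 and 62.3, 47.0, 56.2 and 59.6 and 59.1, 54.4 and 61.1, again without overlap with the control. The log2 fold change in MMP2sh1 was −0.16 (SE 0.07, adjusted p = 0.159), −0.26 (SE 0.05, adjusted p = 8.77e-04) and −0.23 (SE 0.07, adjusted p = 0.0282) on the 3 days, and in MMP2sh2 −0.22 (SE 0.06, adjusted p = 0.0295), −0.27 (SE 0.06, adjusted p = 0.00305) and −0.13 (SE 0.06, adjusted p = 0.278). The MMP2sh2 call of RB1 at day −2 was lost without any of its 6 libraries in turn (adjusted p = 0.0547 to 0.154), and that at day 0 without MMP2sh2 replicate 2 (0.0527). The MMP2sh1 call at day +2 was lost without control replicate 1, 2 or 3 (0.0646, 0.124 and 0.0561) or MMP2sh1 replicate 1 (0.173).

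RBL2, the pocket protein of resting cells, was at 62.7 ± 3.71 CPM in control, 62.6 ± 2.41 in MMP2sh1 and 61.9 ± 3.51 in MMP2sh2 at day −2 (SD, n = 3). Its log2 fold changes from control were between −0.11 and 0.07 over the 6 comparisons, with adjusted p of 0.165 to 0.992.

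**Figure D3:**
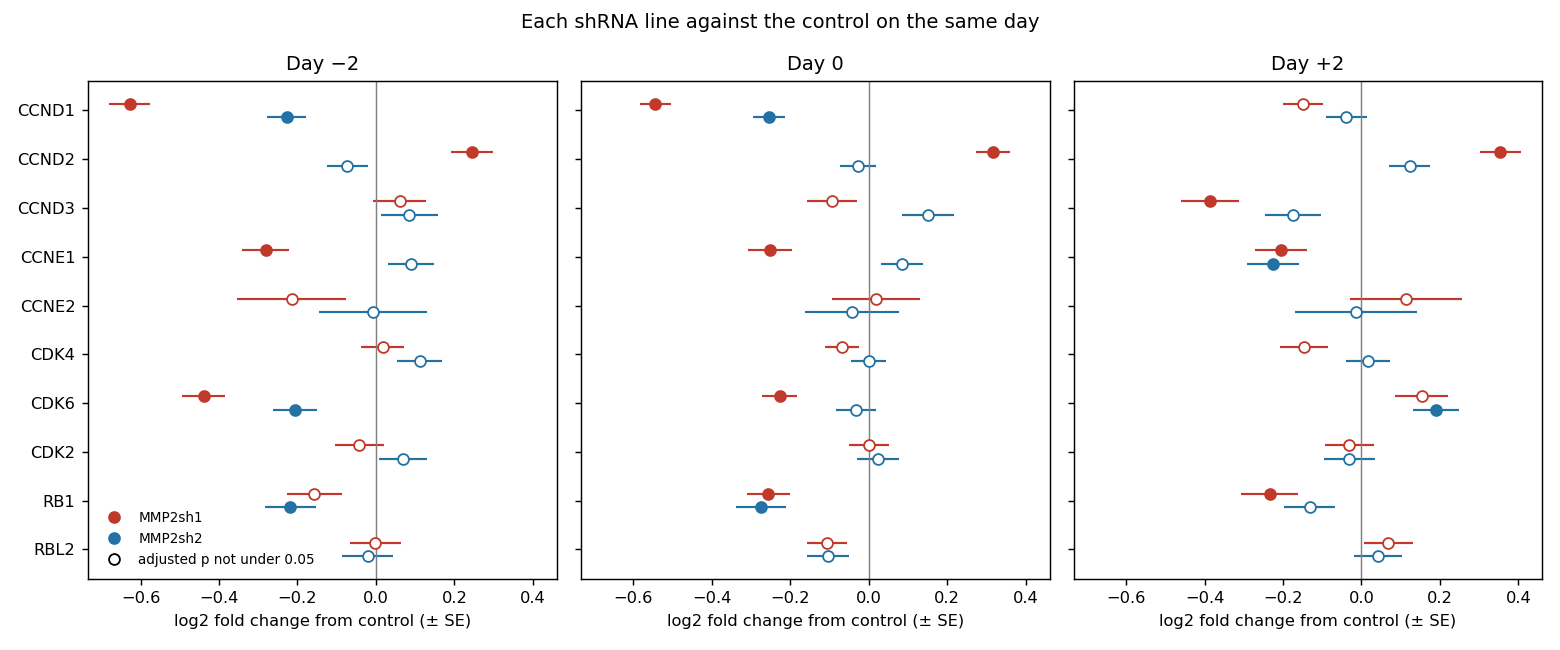
Log2 fold change from control, with its SE, of the 10 genes in MMP2sh1 (red) and MMP2sh2 (blue) in one panel per day. Filled circles have an adjusted p under 0.05. CCND1 and CDK6 in MMP2sh1 lie farthest to the left at day −2 and return towards or past 0 at day +2, while CCND2 stays to the right.

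The 2 shRNA lines were compared with each other directly. At day −2, 4 of the 10 genes were called, while of 18784 genes tested, 10.7% were called, 5.69% lower and 5.01% higher. At day 0, 5 of 10 were called, while of 18875 genes tested, 18.5% were called, 9.62% lower and 8.90% higher. At day +2, 1 of 10 was called, while of 19427 genes tested, 7.86% were called, 3.27% lower and 4.59% higher. CCND1 was lower in MMP2sh1 than in MMP2sh2, with log2 fold changes of −0.41 (SE 0.06, adjusted p = 2.23e-05) and −0.29 (SE 0.04, adjusted p = 5.97e-07) at days −2 and 0. CCND2 was higher by 0.31 (SE 0.06, adjusted p = 7.07e-04), 0.35 (SE 0.04, adjusted p = 1.02e-07) and 0.23 (SE 0.05, adjusted p = 0.00651) on the 3 days. CCNE1 was lower by log2 fold changes of −0.38 (SE 0.07, adjusted p = 3.46e-04) and −0.33 (SE 0.05, adjusted p = 1.83e-05) at days −2 and 0, and at day +2 its value was 0.02 (SE 0.06, adjusted p = 0.906). CDK6 was lower in subconfluent and confluent cells, with −0.24 (adjusted p = 0.0146) and −0.19 (adjusted p = 0.00437), and CCND3 in confluent cells, with −0.24 (adjusted p = 0.00553). MMP2 itself was lower in MMP2sh1 than in MMP2sh2, by log2 fold changes of −1.84, −1.41 and −1.52. The CCND2 call at day +2 was lost without MMP2sh1 replicate 3 (adjusted p = 0.0602) or MMP2sh2 replicate 1 (0.0531). The CDK6 call at day −2 was lost without MMP2sh1 replicate 2 or 3 or MMP2sh2 replicate 1 or 2 (0.0734, 0.0560, 0.0583 and 0.125), and that at day 0 without MMP2sh2 replicate 3 (0.0875).

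From subconfluence to overconfluence of the control cells, CDK6, CCNE1, CDK4, CCND1 and CDK2 mRNA fell and RBL2 and CCND2 mRNA rose. These were 7 of the 10 genes, while of 19099 genes tested, 56.8% were called, 28.6% lower and 28.1% higher. From day −2 to day 0, 7 of 10 were called, while of 19317 genes tested, 35.5% were called, 19.1% lower and 16.4% higher. From day 0 to day +2, 8 of 10 were called, while of 19362 genes tested, 41.4% were called, 20.1% lower and 21.3% higher. The share of the 10 genes called is thus to be read against the wide change of expressed genes over the expansion.

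CDK6 fell at both steps in control, with a log2 fold change of −0.19 (SE 0.05, adjusted p = 0.00158) to day 0 and −0.32 (SE 0.05, adjusted p = 1.47e-05) from there to day +2. Over the expansion it was −0.54 (SE 0.05, adjusted p = 2.73e-09), and day +2 held 68.9% of the level of day −2. CDK4 fell at the first step, with −0.20 (SE 0.04, adjusted p = 0.00107), and had −0.04 (adjusted p = 0.622) at the second. CCND1, CCNE1 and CDK2 fell at the second step, with log2 fold changes of −0.28 (SE 0.05, adjusted p = 7.69e-06), −0.35 (SE 0.06, adjusted p = 1.95e-05) and −0.18 (SE 0.06, adjusted p = 0.0092). Their values at the first step were 0.06 (adjusted p = 0.312), 0.06 (adjusted p = 0.433) and 0.03 (adjusted p = 0.729). CDK4 and CDK6 were thus called lower already at confluence, as were the cyclins CCND2 and CCND3 described next. Whether the change of a gene at the first step differs from that at the second was not tested.

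CCND2 and CCND3 fell to confluence and rose after it. Both steps use the same day 0 libraries, so that a shift in those libraries alone would give changes of opposite sign. CCND2 changed by −0.24 (SE 0.04, adjusted p = 8.19e-05) and then by 0.44 (SE 0.05, adjusted p = 4.53e-09), and ended 0.17 (SE 0.05, adjusted p = 0.00208) above day −2. CCND3 was at 50.1, 57.4 and 52.2 CPM at day −2 and 40.3, 42.2 and 44.5 CPM at day 0, and changed by −0.32 (SE 0.06, adjusted p = 2.24e-04) and then by 0.31 (SE 0.07, adjusted p = 6.13e-04), with −0.03 (adjusted p = 0.721) over the expansion. CCNE2 had the opposite course, 0.36 (SE 0.12, adjusted p = 0.0268) and then −0.41 (SE 0.14, adjusted p = 0.016), from 6.98, 7.84 and 8.42 CPM at day −2 through 9.33, 9.24 and 11.0 at day 0 to 5.90, 8.17 and 7.81 at day +2. The call of its rise was lost without day −2 replicate 1 or 2 or day 0 replicate 3 (adjusted p = 0.139, 0.0549 and 0.141), and that of its fall without day 0 replicate 3 (0.0941) or day +2 replicate 1 (0.125).

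RBL2 rose in control from 59.6, 66.8 and 61.7 CPM through 82.0, 82.8 and 79.8 to 95.9, 87.0 and 84.3, with no overlap between days. The log2 fold change was 0.39 (SE 0.05, adjusted p = 2.64e-06) to day 0, 0.15 (SE 0.06, adjusted p = 0.0328) from day 0 and 0.51 (SE 0.06, adjusted p = 3.91e-08) in all. The call of the second step was lost without day 0 replicate 1 or 3 or day +2 replicate 1 (adjusted p = 0.0720, 0.111 and 0.202), and under DESeq2 on the 6 libraries (0.0531). RB1 rose to day 0 by 0.24 (SE 0.06, adjusted p = 0.00124), and its values from day 0 and over the expansion were −0.10 (adjusted p = 0.162) and 0.12 (adjusted p = 0.0846). The latter passed without day −2 replicate 3 (0.16, adjusted p = 0.0348).

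In the shRNA lines the expansion changed CCNE1, CDK4, CDK2, RBL2 and CCND2 in the same direction as in control, while CCND1, CDK6 and CCND3 lay farther apart between the lines. In MMP2sh1, 7 of the 10 genes were called, while of 19080 genes tested, 54.9% were called, 27.7% lower and 27.3% higher. In MMP2sh2, 8 of 10 were called, while of 19175 genes tested, 54.7% were called, 27.1% lower and 27.7% higher. RBL2 rose with log2 fold changes of 0.58 (SE 0.07, adjusted p = 9.89e-08) in MMP2sh1 and 0.57 (SE 0.07, adjusted p = 1.20e-08) in MMP2sh2. CDK4 changed by −0.42 (SE 0.06, adjusted p = 4.52e-06) and −0.35 (SE 0.06, adjusted p = 1.17e-05), CCNE1 by −0.24 (SE 0.07, adjusted p = 0.00497) and −0.63 (SE 0.07, adjusted p = 1.53e-09), CDK2 by −0.17 (SE 0.07, adjusted p = 0.0422) and −0.28 (SE 0.07, adjusted p = 0.00112), and CCND2 by 0.28 (SE 0.06, adjusted p = 3.00e-04) and 0.37 (SE 0.06, adjusted p = 1.79e-06). The CDK2 call in MMP2sh1 was lost without day −2 replicate 1 or 3 or day +2 replicate 2 or 3 (adjusted p = 0.104, 0.113, 0.149 and 0.0912), and with no filter on low counts (0.0877) or the stricter one (0.0669).

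CCND1 rose over the expansion of MMP2sh1, by 0.23 (SE 0.06, adjusted p = 0.00143), whereas it fell in control. The interaction of line and day, which tests that difference, was 0.48 (SE 0.07, adjusted p = 2.35e-05). CDK6 had a log2 fold change of 0.05 (adjusted p = 0.581) in MMP2sh1, and its interaction was 0.59 (SE 0.09, adjusted p = 6.62e-05). CCND3 fell in MMP2sh1, with −0.49 (SE 0.07, adjusted p = 2.96e-06), and its interaction was −0.45 (SE 0.10, adjusted p = 0.00674). These were 3 of the 10 genes, while of 20548 genes tested, 7.40% were called, 2.88% lower and 4.52% higher. All 3 stayed called whichever of the 12 libraries was removed.

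In MMP2sh2 the interaction called 2 of the 10 genes, while of 20653 genes tested, 4.98% were called, 2.28% lower and 2.71% higher. CDK6 had a log2 fold change of −0.15 (adjusted p = 0.0481) over the expansion and an interaction of 0.39 (SE 0.08, adjusted p = 0.00334). CCNE1 fell further than in control, with an interaction of −0.32 (SE 0.09, adjusted p = 0.027). The values of CCND1 and CCND3 were 0.19 (adjusted p = 0.116) and −0.26 (adjusted p = 0.167), with the signs they had in MMP2sh1. CCND3 fell over the expansion of MMP2sh2, with −0.30 (SE 0.07, adjusted p = 9.95e-04), and RB1 rose by 0.20 (SE 0.07, adjusted p = 0.0156). The CCNE1 interaction was lost without control replicate 1 or 2 of day −2, control replicate 2 or 3 of day +2, MMP2sh2 replicate 3 of day −2 or MMP2sh2 replicate 1 of day +2 (adjusted p = 0.0624 to 0.141). The CDK6 fall was lost without replicate 2 of day −2 or replicate 1 or 2 of day +2 (0.233, 0.0715 and 0.231) and with no filter on low counts (0.0699) or the stricter one (0.0700), and the RB1 rise without replicate 1 or 3 of either day (0.0518 to 0.0819). The CCND1 interaction passed without control replicate 1 of day +2 (0.23, adjusted p = 0.0476) and by DESeq2 on the same libraries (0.17, adjusted p = 0.0349).

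**Figure D4:**
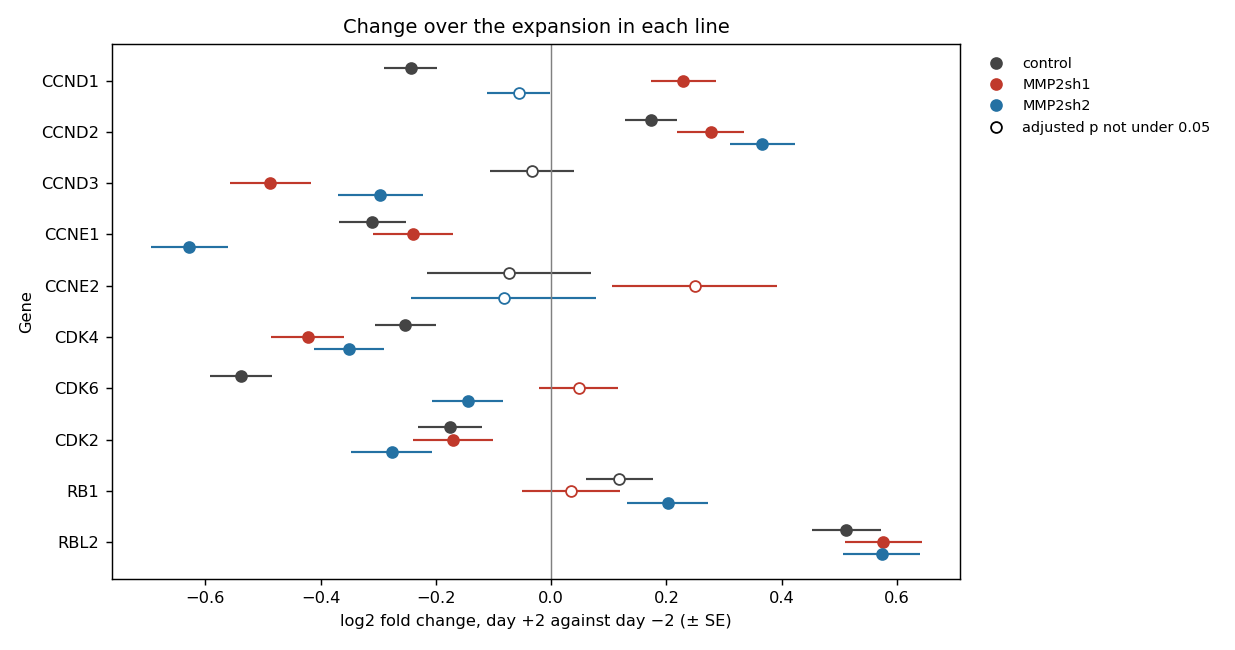
Log2 fold change of the 10 genes from day −2 to day +2, with its SE, in control (grey), MMP2sh1 (red) and MMP2sh2 (blue). Filled circles have an adjusted p under 0.05. RBL2 rises in all 3 lines by 0.51 to 0.58 on the log2 scale, and CCND1, CCND3 and CDK6 are where the lines lie farthest apart.

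The inhibitors of these kinases were read in the same libraries. Of 7 CDK inhibitor genes listed, 6 passed the filter on low counts in the control comparison of day −2 and day +2. From day −2 to day +2 in control, 4 CDK inhibitor genes rose and 1 fell, with a median log2 fold change of 0.60 against 0.03 over all genes, of which 28.1% rose and 28.6% fell. These counts leave out CDKN2B (p15), which had 1 to 4 reads per library at day −2 and 22 to 26 at day +2 in control. It passed the filter on low counts through the groups where it was higher, so that its change is given without a test. Its reads per library were 0 to 4 in MMP2sh1 and 0 to 8 in MMP2sh2 over the 3 days. The fall was that of CDKN1A (p21), from 189 to 118 CPM, at −0.67 (SE 0.05, adjusted p = 6.01e-12). In MMP2sh1, 2, 2 and 3 of the 5 inhibitor genes left were lower than control at days −2, 0 and +2 and none was higher, where 6.14%, 8.58% and 7.11% of all genes were lower. CDKN1B (p27), which binds both the cyclin D and the cyclin E kinases, was lower on all 3 days, with log2 fold changes of −0.31 (SE 0.06, adjusted p = 0.00138), −0.30 (SE 0.05, adjusted p = 7.16e-05) and −0.28 (SE 0.06, adjusted p = 0.00162). Its mean was at 72.1, 85.0 and 109 CPM in control and at 58.0, 69.3 and 90.0 CPM in MMP2sh1 on these days. In MMP2sh2, 1, 0 and 0 of the 5 were lower and 1, 1 and 0 were higher, beside 6.33%, 5.81% and 3.43% of all genes lower and 4.71%, 7.07% and 2.89% higher. CDKN2B is left out of the counts of both shRNA lines as well.

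Of 11 genes for E2F and DP factors and the pocket protein RBL1, 7 fell and 2 rose over the expansion of control, with a median of −0.23. All counts of this kind are to be read beside the 28.6% of all genes that fell and the 28.1% that rose. E2F1, an activator of S phase genes, changed by −0.55 (SE 0.06, adjusted p = 7.09e-09) and TFDP2, a DP partner, by 0.64 (SE 0.06, adjusted p = 2.00e-09). Of the 5 CDK-activating enzymes and WEE1, 4 fell, CDC25A (the phosphatase that activates CDK2) the most at −1.01 (SE 0.06, adjusted p = 2.61e-13). Of 8 genes of cyclin turnover, 4 fell and 1 rose, with SKP2, which directs the degradation of p27, at −0.73 (SE 0.05, adjusted p = 7.85e-12) and SKP1 at 0.12 (SE 0.05, adjusted p = 0.0417). Of 6 MuvB and MYB genes, 2 fell and 1 rose, MYBL2 at −0.71 (SE 0.05, adjusted p = 6.35e-13) and LIN52 at 0.22 (SE 0.07, adjusted p = 0.00674). The shares called of the turnover genes (5 of 8) and of the MuvB and MYB genes (3 of 6) are near the 56.8% of all genes called.

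S phase genes that E2F factors are known to switch on fell in 13 of 17 cases over the expansion of control and rose in none, with a median of −0.35, and 10 of 12 G2 and M phase genes fell and 1 rose, with a median of −0.39, where 28.6% of all genes fell and 28.1% rose. CCNA2 (cyclin A2) changed by −0.74 (SE 0.05, adjusted p = 2.59e-13), CDC20 by −0.79 (SE 0.05, adjusted p = 5.23e-14) and TOP2A by 0.26 (SE 0.05, adjusted p = 2.30e-05). In control, from day −2 to day 0, 2 of 17 S phase genes fell and 4 rose, and 3 of 12 G2 and M phase genes fell and 4 rose, where 19.1% of all genes fell and 16.4% rose. From day 0 to day +2, 16 of 17 and 12 of 12 fell, where 20.1% of all genes fell. The summed S phase genes were at 4445, 4381 and 3454 CPM in control on the 3 days, at 4482, 4508 and 3461 CPM in MMP2sh1 and at 4490, 4578 and 3393 CPM in MMP2sh2. The part of cycling cells in the levels of the 10 genes was not tested.

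Against control, 2, 2 and 3 of 17 S phase genes were lower in MMP2sh1 on the 3 days, and 2, 7 and 1 were higher. Of 12 G2 and M phase genes, 2, 4 and 2 were lower and 1, 1 and 0 higher. Over all genes 6.14%, 8.58% and 7.11% were lower and 5.42%, 8.26% and 7.68% higher on these days. None of the S phase genes that were higher at day 0 was called on all 3 days. MYBL2, RRM2 and MCM3 were lower on all 3 days. MYBL2, which works with the MuvB complex, had −0.46 (adjusted p = 1.38e-06), −0.38 (adjusted p = 2.84e-09) and −0.28 (adjusted p = 2.37e-04). RRM2, a subunit of ribonucleotide reductase, had −0.42 (adjusted p = 2.87e-06), −0.29 (adjusted p = 4.99e-07) and −0.27 (adjusted p = 3.32e-04). MCM3, a subunit of the replicative helicase, had −0.29 (adjusted p = 3.77e-04), −0.29 (adjusted p = 1.22e-06) and −0.17 (adjusted p = 0.0174). In MMP2sh2, 1, 1 and 0 of 17 S phase genes were called on the 3 days, and 5, 2 and 1 of 12 G2 and M phase genes, beside 11.0%, 12.9% and 6.32% of all genes. Of the remaining lists, MMP2sh1 had 2, 4 and 1 of 11 E2F, DP and RBL1 genes, 0, 3 and 0 of 5 CDK-activating enzymes and WEE1, 1, 1 and 0 of 8 turnover genes and 1, 1 and 1 of 6 MuvB and MYB genes called, and MMP2sh2 had 1, 3 and 0, 0, 1 and 0, 1, 0 and 0, and 0, 0 and 0 in the same order. The share of all genes called in MMP2sh1 was 11.6%, 16.8% and 14.8%, so that a count of 1 in these lists is about what the background gives.

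Some markers of cell type moved with line and day beside the 10 genes. FN1 (fibronectin) rose over the expansion of control by 2.07 (SE 0.07, adjusted p = 3.01e-19) and CDH2 (N-cadherin) changed by −0.79 (SE 0.06, adjusted p = 1.99e-11). SPARC was higher in MMP2sh1 on all 3 days (0.17 (adjusted p = 0.024), 0.22 (adjusted p = 1.04e-05) and 0.40 (adjusted p = 5.53e-08)). Of the 6 mesenchymal and bone markers tested, 2 were lower and 1, SPARC, higher in MMP2sh1 at days −2 and 0, and 5 were higher at day +2. Those lower were FN1 and CDH2 at day −2 and FN1 and RUNX2 at day 0. Over all genes, 6.14%, 8.58% and 7.11% were lower in MMP2sh1 at days −2, 0 and +2, and 5.42%, 8.26% and 7.68% were higher. CLDN4, a claudin, was also higher in MMP2sh1 on all 3 days (0.40 (adjusted p = 3.88e-04), 0.59 (adjusted p = 1.77e-06) and 0.90 (adjusted p = 1.49e-09)). It was the only epithelial marker called higher there, KRT14 being lower at day 0 with −0.71 (adjusted p = 0.00477), and the median of the 5 markers tested at day −2 was −0.26. The sum of the epithelial markers was at 51.5 to 59.1 CPM in the MMP2sh1 libraries of day −2. It was at 42.2 to 45.2 CPM in control and at 34.7 to 39.0 CPM in MMP2sh2. In this sum the shRNA lines lay on opposite sides of control, as they did at day 0. At day +2 the MMP2sh2 sum, at 39.1 to 42.9 CPM, overlapped that of control, at 39.1 to 42.7 CPM. The median log2 fold change of the 5 markers at day −2 was −0.26 in MMP2sh2 also. Over the expansion of control KRT14 changed by 2.68 (adjusted p = 4.95e-14), from 1.79 to 11.4 CPM, and VWF by −0.70 (adjusted p = 0.00506). Of 4 epithelial markers without CDH1, KRT14 alone was called higher and 3 were called lower, with a median of −0.46. Over all genes 28.1% were higher and 28.6% lower. CDH1 (E-cadherin) had 39 to 89 reads per library at day −2 and 0 to 10 at day +2 in control, under the filter's level on the latter day, and is given without a test. Their part in the levels of the 10 genes was not tested.

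Over the 9 group means of log2 CPM, the genes most like each of the 10 were found among 15136 genes with a mean of at least 1 CPM. They are given as a description, since all points share the same libraries and days. CCND1 was most like THADA (Pearson r = 0.977) and SUDS3 (r = 0.968), and CCND2 like NLRP3 (r = 0.971) and MYO1D (r = 0.962). CCND3 was most like RAB7L1 (r = 0.977) and ASNA1 (r = 0.959). CCNE1 was most like GNAZ (r = 0.986) and AMPH (r = 0.975), and CCNE2 like RP11-544I20.2 (r = 0.970) and RMI1 (r = 0.953). CDK6 was most like ALG1L (r = 0.956) and ZNF699 (r = 0.954), and had 2 genes above an r of 0.95, as had CCND1 and CCNE2. CDK4 was most like CHMP6 (r = 0.991) and BLVRB (r = 0.986), CDK2 like RP11-368M16.7 (r = 0.991) and CYP27C1 (r = 0.988), and RBL2 like CLK1 and HAS2 (both r = 0.991), with 109, 114 and 427 genes above 0.95. RB1 had none above 0.95, with SPAST at 0.9498 and MBNL2 at 0.9496. CCND3 had 8 genes above 0.95, and CCND2 and CCNE1 had 11 each. At this cutoff the courses of RBL2, CDK2 and CDK4 over lines and days were shared by many genes. Those of CCND1, CDK6, CCNE2 and RB1 were shared by few. CCNE2 had 208 to 628 reads per library, and the part of this in its count was not tested.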

How the data were processed

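Poly(A) RNA of 3 stable U2OS lines was sequenced at 3 days of culture, with 3 libraries in each of 9 groups, which the study describes as independent biological replicates. Groups were taken from the sample labels, whose titles name the shRNA lines MMP2KD_23 and MMP2KD_26. The titles do not use the names MMP2sh1 and MMP2sh2, which are given here in the order of the 2 MMP2 hairpins in the study's methods. The authors used Trim Galore 0.6.0 for trimming, STAR 2.7.3a for alignment to hg19 and HTSeq 2.0.0 for counting over exons (union mode, strand ignored, minimum alignment quality 10). Each deposited file holds whole-number counts by gene symbol that the authors had not normalized. The 5 summary lines of HTSeq, which name no gene and held 16.8% to 19.1% of the counted total, were left out.

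From these counts, each comparison was fitted on its own 6 libraries (12 for an interaction of line and day) by edgeR 4.0.16 (R 4.3.3), using TMM scaling, filterByExpr (minimum count 10 and a total of at least 15), the two-sided quasi-likelihood test and Benjamini-Hochberg adjustment over all genes tested. The SE is the size of the log2 fold change divided by the square root of F. Levels are CPM with TMM factors over all 27 libraries. Lengths are those of canonical GENCODE transcripts on GRCh37 without bases in exons of other counted genes; the annotation behind the deposited counts is not given in the sources used here. The scripts were tested on simulated data. Alternatives were DESeq2 1.42.0 on the same or all 27 libraries, edgeR on all 27, median-of-ratios scaling, no filter, a filter of 10 counts in every library, a block for the replicate number, CPM without TMM factors, and each library left out. Added after seeing the data were levels on the whole canonical length and list counts without genes whose mean in a group was under 0.250 CPM, the level of 10 reads in a library of median size.

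The 10 genes and the lists were chosen with earlier results of these data known. Named beside the 10 genes and MMP2 were, from each list, the largest called rise and fall over the control expansion and genes called with one sign in MMP2sh1 at all days, and the 2 genes most like each of the 10. Same-numbered libraries were not paired, since in 0 of 14 comparisons did every same-number correlation of deviations exceed 0.1 (range −0.12 to 0.21).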

Additional observations from a re-analysis of the deposited data

Results flagged for a closer look

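Each result here is a difference between lines in the same contrast, tested by edgeR's quasi-likelihood test. The change from day −2 to day +2 differed between MMP2sh1 and control for CDK6 by 0.59 on the log2 scale (adjusted p = 6.62e-05), for CCND1 by 0.48 (adjusted p = 2.35e-05) and for CCND3 by −0.45 (adjusted p = 0.00674). Between MMP2sh2 and control it differed for CDK6 by 0.39 (adjusted p = 0.00334) and for CCNE1 by −0.32 (adjusted p = 0.027).

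Where the log2 fold changes of the shRNA lines from control had opposite signs, the direct test of MMP2sh1 against MMP2sh2 gave log2 differences for CCND2 of 0.31 and 0.35 at days −2 and 0 (adjusted p = 0.000707 and 1.02e-07). For CCNE1 they were −0.38 and −0.33 on these days (adjusted p = 0.000346 and 1.83e-05), and for CCND3 the difference was −0.24 at confluence (adjusted p = 0.00553). None of the MMP2sh2 values against control behind these had passed the test, nor had that of CCND3 in MMP2sh1. No test thus places the lines on opposite sides of control. The MMP2sh2 libraries of CCND2 and CCNE1 overlapped those of control at day 0. At day −2 they did not, with CCND2 wholly below control and CCNE1 wholly above it. CCND3 at day 0 was at 39.6 to 40.0 CPM in MMP2sh1, 40.3 to 44.5 in control and 44.6 to 50.1 in MMP2sh2, without overlap.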

How the results depend on the processing

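No value of the 10 genes turned its direction among called values. The calls of CCND1, CCND2, CCNE1 and CDK6 in MMP2sh1 at days −2 and 0 held under every alternative fit and every library left out. With a library left out, 1014 tests kept their side of the threshold, 59 calls were lost and 7 were gained. Under the other alternatives 1086 kept it, 17 calls were lost and 17 gained. The number of the 10 genes called, with a library left out, was 2 to 5 (4 with all libraries) in MMP2sh1 at day +2, 0 to 2 (3), 1 to 2 (2) and 0 to 2 (2) in MMP2sh2 at days −2, 0 and +2, 0 to 2 (1) between MMP2sh1 and MMP2sh2 at day +2, and 1 to 3 (2) for the MMP2sh2 interaction. With the replicate block it was 2 in MMP2sh1 at day +2, where CCNE1 and RB1 lost their calls, and 3 between MMP2sh1 and MMP2sh2 at day +2. The latter count was 3 by DESeq2 on the same libraries, 2 by DESeq2 on all 27 and 2 with at least 10 counts in every library, with CCND3, CDK4 or CCND1 added. The MMP2sh2 interaction had 4 calls by DESeq2 on the same libraries and 4 on all 27, with CCND1 and CCND2 added. edgeR on all 27 libraries called 1 gene in MMP2sh2 at day +2, where CDK6 was lost (adjusted p = 0.0741). Fits on all 27 libraries also lost RB1 in MMP2sh2 at day −2 (0.0570 by DESeq2, 0.0524 by edgeR), CCNE2 in control from day −2 to day 0 (0.0711 and 0.0560) and RBL2 from day 0 to day +2 (0.0579 and 0.0932). The cause was not tested.

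The number of all genes called fell with a library left out to as low as 1321 of 2184 in MMP2sh1 at day −2, 728 of 2080, 1509 of 2456 and 679 of 1222 in MMP2sh2 on the 3 days, 1208 of 2009 and 885 of 1527 between the shRNA lines at days −2 and +2, and 934 of 1520 and 541 of 1029 for the interactions, with fewer libraries. Between the shRNA lines at day −2 it was 3239 by DESeq2 on all 27 libraries. The replicate block gave 2974 there and 2113 at day +2, and in 0 of 14 comparisons did every library correlate best with its own number. Without TMM factors, 30 of 90 group levels moved by more than their SD. Depth limits CCNE2 most, with 208 to 628 reads per library.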
